A study of Mus musculus with 23 samples.

Results

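Genes that remodel chromatin or write, read and erase histone marks were followed through the differentiation of A404 cells towards smooth muscle. The set was defined by symbol. It holds every gene with a probe of its own whose symbol begins with Smarc, Arid, Chd and a digit, Hdac, Sirt, Cbx, Kmt, Kdm, Prmt, Brd or Mbd and a digit, together with Ezh1, Eed, Suz12, Bmi1 and Hmga2. The rule reads symbols and no measured value, but it was set with earlier results of these data known. The rule gave 89 of 8683 genes, on 132 probes, and 34 of the genes had more than 1 probe, whose values were averaged. A further 7 genes (Arid5a, Cbx6, Chd2, Ezh2, Kdm2a, Sirt2 and Smarcd3) lay on probes that carry several symbols and were not assessed. The methyltransferase Ezh2 of Polycomb is among them.

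As background, A404 was cloned from P19 mouse embryonal carcinoma cells, and its resistance to puromycin is driven by the promoter of Acta2, the smooth muscle actin gene. Control cells (n = 6 arrays) were undifferentiated and taken near confluence. RA48 cells (n = 5) and RA96 cells (n = 6) received 1 µmol/L all-trans retinoic acid for 48 h and 96 h, begun at about 30% confluence, so density and treatment cannot be told apart. Puromycin cells (n = 6) were selected with puromycin for 48 h after the 96 h treatment. Whether retinoic acid continued during selection, and the density at the start of this group, are not in the labels. Each array set red-labelled RNA from 5 to 6 plates of cells against green-labelled RNA pooled from whole mouse embryos of day 17.5, and all groups are thus 1 clone read against 1 reference. Each value is a log2 ratio of cell to embryo signal, so that 0 means equal signal, and it rests on a deposited ratio read as log10, whose base and direction the sources used here do not state. The labels do not say that the arrays of a group came from separate cultures, so p-values measure only the spread between arrays, which may be technical. A level cannot be compared between genes, and changes are differences of group means ± SE. In bulk RNA, fewer cells that express a gene and less RNA per cell cannot be told apart.

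As background, DNA in chromatin is wound around histones, and remodelling enzymes of the SWI/SNF, ISWI and Chd classes use ATP to slide or evict them. Other enzymes add or remove acetyl and methyl groups on histone tails, and proteins with bromodomains, chromodomains or methyl-CpG-binding domains read these marks or the methylation of the DNA. Polycomb complexes keep developmental genes silent in pluripotent cells, and SWI/SNF and histone acetylation are known to take part in opening smooth muscle genes such as Acta2.

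Within each group the arrays fell into a first set of 11 and a second set of 12 that the labels do not name, a split that carried 48.9% of the variance within groups. Control and Puromycin had 3 arrays in each set, RA48 had 3 and 2, and RA96 had 2 and 4. RA48 and RA96 are thus unbalanced over the sets, and values with the set as a block or within each set are given for some genes. Where none is given, these fits may still differ. The sets were read from the same arrays, so p-values of those fits are optimistic. Of all rows 19.8% were higher and 26.4% lower in Puromycin than in Control. Of 7 measured smooth muscle markers 6 were higher in Puromycin than in Control, and of 7 markers of undifferentiated cells 4 were lower. Of 7 neural markers 1 was higher and 2 were lower, 3 of 6 markers of extraembryonic endoderm were higher, and 1 of 7 markers of cardiac and skeletal muscle was lower. Of 21 measured genes of proliferating cells 15 were lower and 1 was higher. Their mean per array lay between 0.89 and 1.19 in Control, between 0.74 and 0.93 in RA48, between 0.33 and 0.68 in RA96 and between 0.38 and 0.60 in Puromycin. The part of this fall in the changes given below was not tested.

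The selected end point was compared with undifferentiated cells first, since both groups are balanced over the array sets. In Puromycin against Control, 44 members fell and 17 rose. The largest rises were those of the methyl-CpG-binding gene Mbd2 (3.06 ± 0.09, an 8.36-fold change), the ARID gene Arid5b (2.74 ± 0.08, 6.70-fold) and the high mobility group gene Hmga2 (2.26 ± 0.27, 4.78-fold). The Polycomb reader Cbx7 fell most, by 2.35 ± 0.14, a 5.11-fold change. It was followed by the SWI/SNF subunit Smarcd1, which fell by 1.37 ± 0.07. The 61 called members are 68.5% of the set, where called means an adjusted p under 0.05 in limma over all rows, and 46.3% of all 17863 rows were called. Members fell in 49.4% and rose in 19.1%, against 26.4% and 19.8% of all rows, and against 28.6% and 24.6% of the 8683 genes. The median change of the 89 members was -0.32, beside -0.09 over all rows. In the first array set alone this median was -0.40 and in the second -0.21.

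Sizes were mostly small. A called change of at least 2-fold was found in 13 members (14.6%, against 10.5% of rows) at the end point, and in 7, 2 and 0 members in the steps from Control to RA48, to RA96 and to Puromycin (against 5.14%, 3.39% and 0.47%). The arrays of Puromycin and Control did not overlap in 45 members (50.6%, against 28.3%), and those of the 3 steps did not in 27, 16 and 7 members (against 18.1%, 10.3% and 4.6%). With the array set as a block, 71 members were called at the end point (against 60.3%), 20 higher and 51 lower (against 24.8% and 35.5%). The block ended no call and added 10, those of Arid1b, Brdt, Chd1, Chd3, Kdm1b, Kdm3a, Kdm4a, Kdm5b, Kmt2a and Smarcc1. Of 23 called members with several probes, 12 had a probe that was not called in the same direction (Arid4a, Brd1, Chd7, Chd8, Kdm5a, Kdm5c, Kdm6a, Kdm7a, Kmt2c, Prmt8, Sirt1 and Smarca5). Of the 61 called members 60 had the same direction in both array sets, the exception being the heterochromatin gene Cbx3, and 46 were also called within each set alone. In 4 members (Hdac2, Hdac10, Kdm6b and Smarca4) the sets gave opposite changes, each called within its set, and none of the 4 was called over all arrays. Shares over all rows are not given for these counts within the sets. With group and array set together as a random block, in which the shift between the sets counts as spread, 33 members were called (37.1%, against 17.4% of rows). In the plot of end point change by family the blue points of falling genes fill most of the Chd, Prmt and Polycomb complex 2 columns, while the few large rises are single genes of their families.

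**Figure D1:**
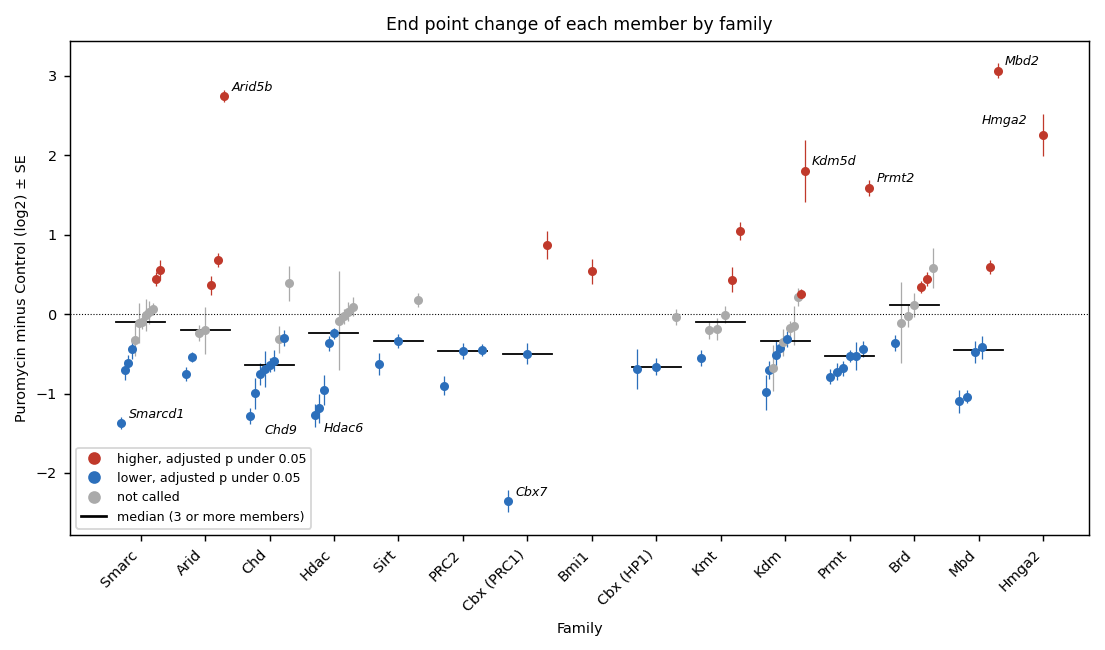
Change from Control to Puromycin (log2, with its SE) of each of the 89 members, in columns by family, with a bar at the median of families of 3 or more members. Points are red where the gene was called higher, blue where called lower and grey where not called, and Mbd2, Arid5b and Hmga2 stand at 3.06, 2.74 and 2.26 while Cbx7 stands at -2.35.

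In time, most called changes came with retinoic acid and few with selection, among members as among all rows. In RA48 against Control 32 members were called (36%, against 26% of rows), of which 9 rose and 23 fell, against 11.9% and 14.1% of rows. In RA96 against RA48 26 members were called (29.2%, against 19.8%), of which 9 rose and 17 fell, against 10.4% and 9.42%. In Puromycin against RA96 4 members were called (4.49%, against 5.27%). All 4 rose, against 3.17% of rows higher and 2.1% lower. With the array set as a block the counts were 46 (against 39.3% of rows), 43 (against 32.1%) and 16 (against 12.8%). By direction these were 17 higher and 29 lower (against 17% and 22.4%), 10 and 33 (against 15.3% and 16.8%), and 11 and 5 (against 7.29% and 5.48%). The random block left 14, 3 and 0 members called (against 8.04%, 1.39% and 0.0952% of rows), so the counts of every step depend on how the array sets are treated. The count of RA96 against RA48 was 17 without RA48 replicate 3. Over the 4 groups together, 67 members differed by the limma F test (75.3%, against 52.7% of rows). It was 81 with the set as a block (against 71.2%) and 24 with the random block (against 16%). Neighbouring steps share arrays, so their counts are given side by side, and a contrast of the retinoic acid steps is given further below.

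**Figure D2:**
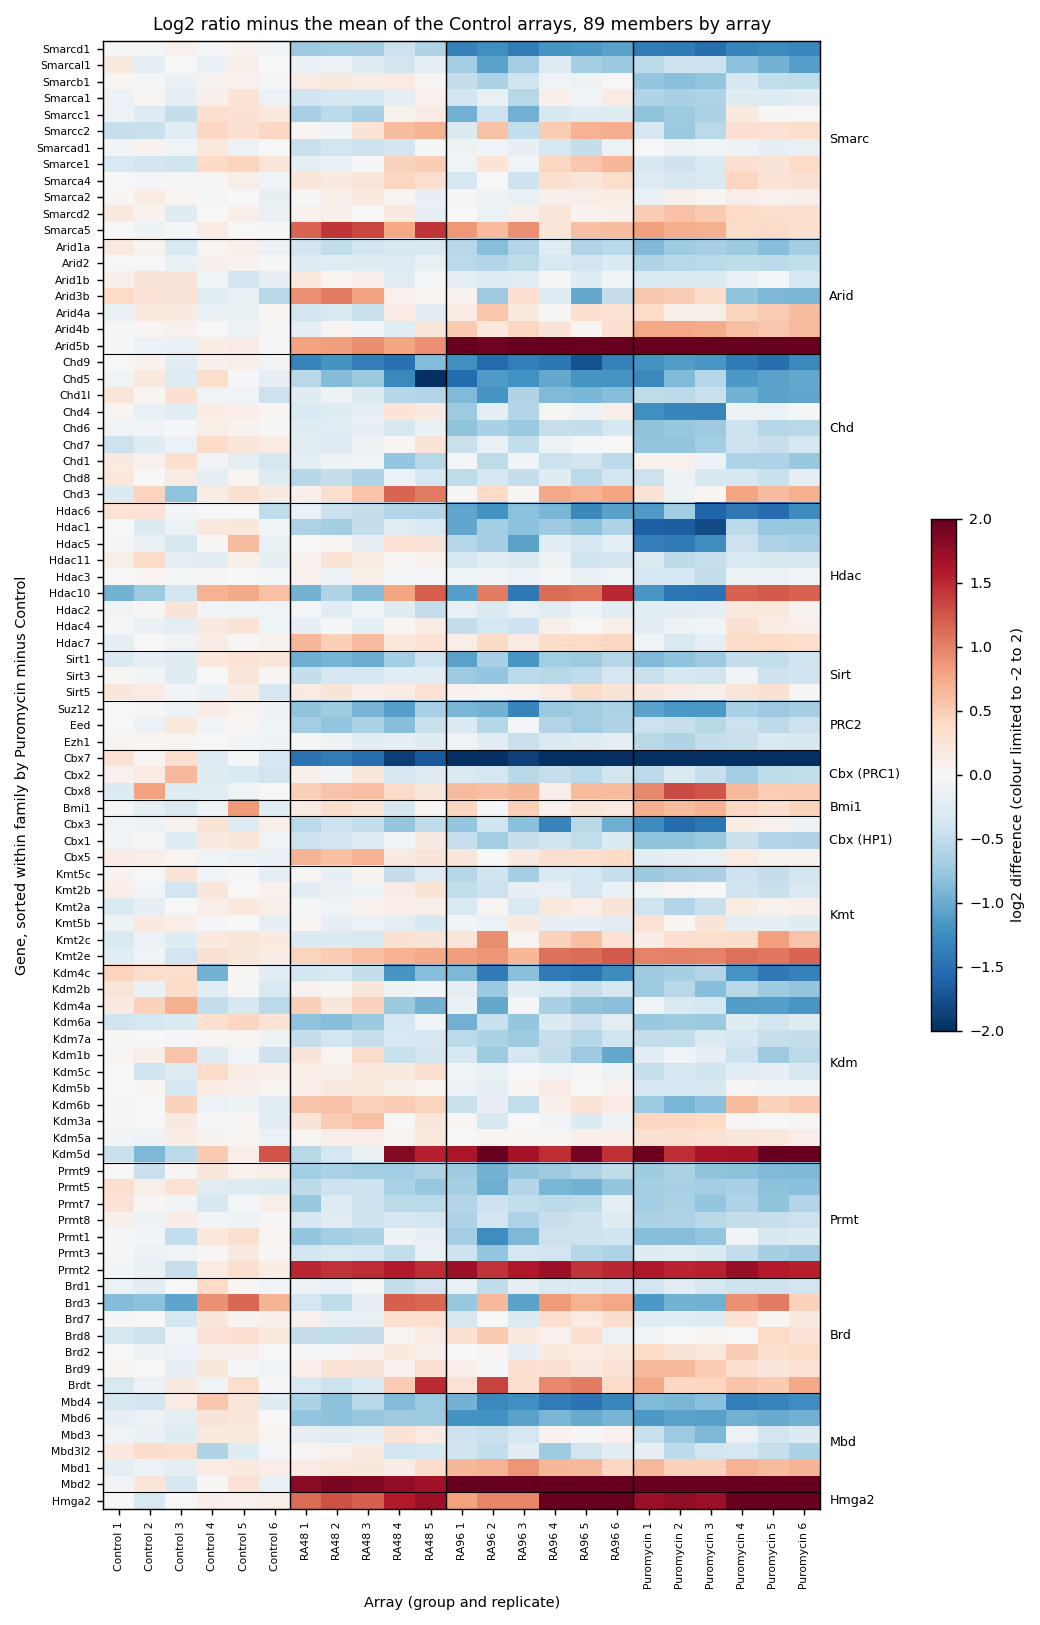
Log2 ratio of each of the 89 members on each of the 23 arrays minus the gene's mean over the Control arrays, in rows by family and in columns by group, with red above and blue below the Control mean and colours limited to -2 and 2. Cbx7, Chd9 and Smarcd1 are blue and Mbd2, Prmt2, Arid5b and Hmga2 red on every array from RA48 on, and Brd3 and Hdac10 are blue on first-set and red on second-set arrays of every group.

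The promoters of the members were read from RefSeq (GRCm38.p6) for the 250 bases before each start. Of the 89 genes 72 had a window, 96 windows in all, with a median GC content of 63.8%. The 32851 windows set beside them, called all windows below, had a median of 52.4%. They came from 27025 genes and do not cover every gene. Of the 17 members that rose by the end point 12 had a window. No window was left for Mbd2, which rose most, or for Mbd1, so the promoter counts leave them out. Windows are shown for 3 genes that rose strongly (Arid5b, Hmga2 and Prmt2), for the 2 that fell most (Cbx7 and Smarcd1) and for Suz12, the gene of Polycomb complex 2 that fell most. They were chosen with these values known. Capitals mark the letters TTTCCCGC, a form of the site of the E2F cell cycle factors, and CCAAT, each searched on both strands.

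Arid5b, chr10:68278727-68278976, minus strand: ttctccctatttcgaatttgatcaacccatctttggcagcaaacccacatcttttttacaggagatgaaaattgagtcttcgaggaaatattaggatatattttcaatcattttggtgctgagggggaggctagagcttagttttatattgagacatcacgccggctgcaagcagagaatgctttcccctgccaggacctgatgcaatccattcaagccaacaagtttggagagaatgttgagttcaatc

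Hmga2, chr10:120476470-120476719, minus strand: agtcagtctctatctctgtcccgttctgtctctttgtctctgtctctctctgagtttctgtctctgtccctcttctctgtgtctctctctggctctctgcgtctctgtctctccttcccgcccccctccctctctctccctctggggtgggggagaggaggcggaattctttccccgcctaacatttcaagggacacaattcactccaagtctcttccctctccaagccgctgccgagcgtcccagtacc

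Prmt2, chr10:76237866-76238115, minus strand: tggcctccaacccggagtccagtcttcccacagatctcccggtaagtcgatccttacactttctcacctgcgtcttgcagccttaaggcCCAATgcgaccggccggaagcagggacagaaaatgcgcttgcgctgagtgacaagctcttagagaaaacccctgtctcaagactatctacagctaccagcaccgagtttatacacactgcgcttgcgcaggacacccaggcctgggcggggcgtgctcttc

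Cbx7, chr15:79932647-79932896, minus strand: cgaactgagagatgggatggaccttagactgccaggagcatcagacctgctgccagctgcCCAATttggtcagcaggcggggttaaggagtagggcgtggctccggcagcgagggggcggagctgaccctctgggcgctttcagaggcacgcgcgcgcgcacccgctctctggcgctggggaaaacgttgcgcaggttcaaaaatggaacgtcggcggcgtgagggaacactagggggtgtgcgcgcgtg

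Smarcd1, chr15:99702037-99702286, plus strand: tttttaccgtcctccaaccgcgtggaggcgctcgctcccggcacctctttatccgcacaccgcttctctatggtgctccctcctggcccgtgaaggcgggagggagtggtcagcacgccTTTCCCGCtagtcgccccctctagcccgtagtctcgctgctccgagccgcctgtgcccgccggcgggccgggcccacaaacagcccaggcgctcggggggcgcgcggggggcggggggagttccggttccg

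Suz12, chr11:79992856-79993105, plus strand: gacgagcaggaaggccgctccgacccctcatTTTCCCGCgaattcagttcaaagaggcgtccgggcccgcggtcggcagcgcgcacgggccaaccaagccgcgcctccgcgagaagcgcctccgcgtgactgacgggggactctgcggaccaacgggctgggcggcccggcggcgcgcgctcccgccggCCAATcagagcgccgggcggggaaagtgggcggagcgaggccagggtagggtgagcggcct

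The E2F letters (TTTCCCGC or TTTGGCGC) lay in 6 of the 96 windows (6.25%, against 1.3% of all windows), 1 each of Arid1a, Brd7, Cbx3, Kmt5c, Smarcd1 and Suz12. They were in 5 of 51 windows of members that fell by the end point, in 0 of 15 of members that rose, and in 1 of 30 of members not called. CCAAT lay in 32.3% of member windows and in 33.8% of all windows, in 41.2% of the windows of falling and in 20% of those of rising members. The palindromic E-box CACGTG was in 9.38% of member windows and 6.02% of all. The CArG box of smooth muscle genes, which can overlap a CCAAT box, was in 2.08% and 1.47%. The spaced repeat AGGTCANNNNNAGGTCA, a retinoic acid response element, was in 0 of 96 member windows and in 0.00913% of all windows. These are matches of letters in a short window and no binding was measured. Members have more GC than other promoters, and the part of that in the shares was not tested.

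Over all rows 26.4% fell and 19.8% rose by the end point, and these shares stand beside each family and list count below. A count near them does not set a family apart from other genes. Genes of SWI/SNF and related remodellers moved both ways. Of 12 measured Smarc genes 4 fell and 2 rose by the end point, with a median of -0.10. These counts are near the shares of all rows. Smarcd1, which encodes the accessory subunit BAF60a, ranged from 1.08 to 1.22 (median 1.10) in Control. In RA48 its arrays were at 0.41, 0.45, 0.43, 0.70 and 0.52. It ranged from -0.27 to 0.05 (median -0.07) in RA96 and from -0.37 to -0.14 (median -0.23) in Puromycin. The gene fell in both 48 h steps, by 0.63 ± 0.07 (adjusted p = 9.24e-07) and by 0.60 ± 0.07 (7.49e-06), and no array of a later group reached the group before it up to RA96. Its E2F letters lie 131 to 124 bases before the start in the window printed above. Its paralogue Smarcd2 went the other way and rose by 0.44 ± 0.09, most of it during selection (0.38 ± 0.09, adjusted p = 0.0111). The core subunit Smarcb1 fell by 0.62 ± 0.11 and Smarcal1, an annealing helicase, by 0.71 ± 0.13. Smarca1, an ISWI ATPase, fell by 0.43 ± 0.13.

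Smarca2 and Smarca4 are the alternative ATPases of SWI/SNF. Neither passed the F test over all arrays, and Smarca4 did with the set as a block (adjusted p = 0.0162). Smarca2 (BRM) had group means from -1.11 to -1.05 and Smarca4 (BRG1) from 0.07 to 0.36 (limma F test, adjusted p = 0.882 and 0.315). With the block Smarca4 was 0.32 higher in RA48 than in Control and 0.36 lower in RA96 than in RA48 (adjusted p = 0.0153 and 0.0131). From Control to Puromycin, Smarca4 changed by -0.27 on the first-set arrays and by 0.32 on those of the second, so its value over all arrays (0.02 ± 0.15) is a mean of opposite changes. The scaffold subunits Smarcc1 and Smarcc2 and the subunit Smarce1 were not called at the end point either (-0.32, -0.11 and -0.01). With the set as a block Smarcc1 was called lower (adjusted p = 0.000304).

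Smarca5, the ISWI ATPase SNF2H, peaked at 48 h. It ranged from 0.94 to 1.20 (median 1.02) in Control, stood at 2.20, 2.47, 2.38, 1.81 and 2.46 in RA48, and ranged from 1.28 to 1.95 (median 1.67) in RA96 and from 1.35 to 1.86 (median 1.58) in Puromycin. All RA48 arrays lay above all Control arrays. The rise of 1.23 ± 0.13 (limma adjusted p = 1.97e-07) was followed by a fall of 0.58 ± 0.13 (0.00397), and the end point was 0.55 ± 0.13 above Control (0.31, adjusted p = 0.133, within the second set). The 2 probes of the gene disagreed. One rose by 2.93 in the first step and the other fell by 0.48, both called, so the peak is that of 1 probe.

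Among 7 measured Arid genes, which encode proteins with the AT-rich interaction domain, 3 rose and 2 fell. Arid5b, a partner of the demethylase Phf2, ranged from -1.22 to -0.91 (median -1.09) in Control. Its RA48 arrays stood at -0.27, -0.23, -0.15, -0.28 and -0.16. It reached 0.87 to 1.23 (median 1.06) in RA96 and 1.57 to 1.74 (median 1.69) in Puromycin. The 4 groups did not overlap anywhere in this order, and it was the only member that rose in all 3 steps, by 0.85 ± 0.08, 1.27 ± 0.08 and 0.62 ± 0.08 (limma adjusted p = 2.26e-08, 6.37e-10 and 2.55e-05). The random block ended the call of the last step (adjusted p = 0.174). Arid4b, a subunit of Sin3 corepressor complexes, rose by 0.68 ± 0.09 in all and by 0.38 ± 0.09 during selection, and its relative Arid4a rose by 0.36 ± 0.12. The rise of Arid4a was that of 1 of its 2 probes (0.66, the other 0.07), and first-set arrays gave 0.13 (adjusted p = 0.365) and second-set arrays 0.60. Arid1a and Arid2, the subunits that distinguish the BAF and PBAF forms of SWI/SNF, fell by 0.76 ± 0.09 and 0.54 ± 0.06. Arid1b, the paralogue of Arid1a, was not called (-0.23 ± 0.10, adjusted p = 0.0671, and 0.0355 with the set as a block), and its probes were called in opposite directions in the first step.

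**Figure D3:**
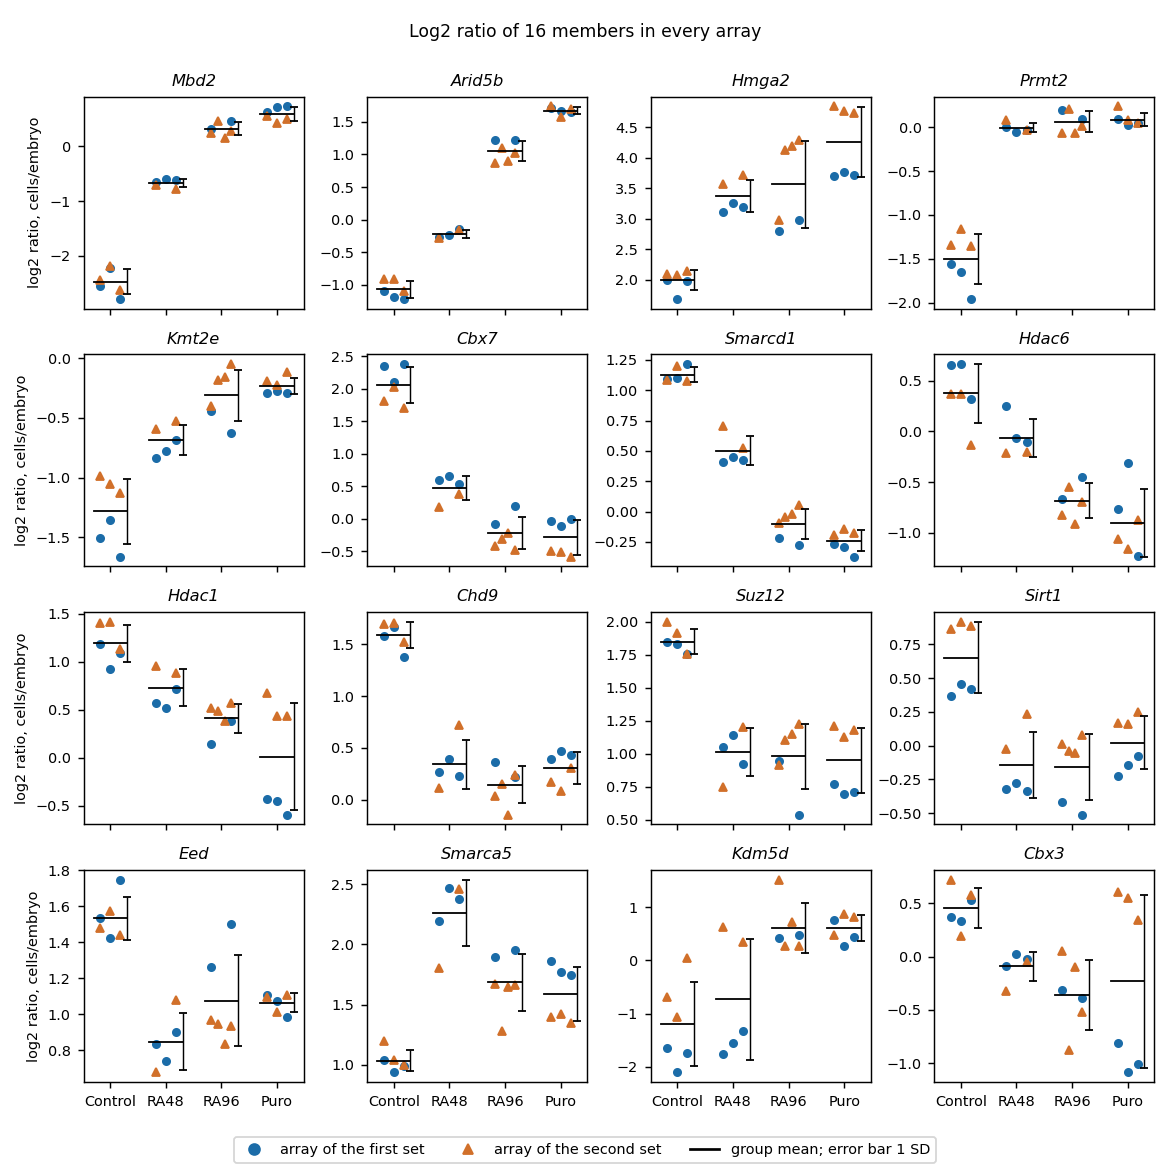
Log2 ratio of cell over embryo RNA of 16 members on each array by group, with blue circles for arrays of the first set, orange triangles for the second, a line at the group mean and an error bar of 1 SD. Arid5b climbs from -1.07 to 1.67 without overlap between groups, Smarcd1 falls from 1.13 to -0.24, and in Cbx3 the Puromycin arrays of the 2 sets lie apart.

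The Chd family of remodellers fell. Of 9 measured genes 7 fell and 0 rose by the end point, with a median of -0.64 (-0.69 and -0.56 within the sets). Chd9, a helicase of the Chd6 to Chd9 subfamily, ranged from 1.38 to 1.70 (median 1.63) in Control and stood at 0.26, 0.39, 0.23, 0.11 and 0.72 in RA48. It ranged from -0.14 to 0.37 (median 0.18) in RA96 and from 0.08 to 0.47 (median 0.35) in Puromycin. It fell by 1.25 ± 0.11 in the first step (limma adjusted p = 1.04e-08), and the second differed by -0.20 ± 0.11 (0.216). Both of its probes fell.

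Chd5, best known as a NuRD ATPase of neural tissue, ranged from -0.04 to 0.58 (median 0.18) in Control and stood at -0.32, -0.64, -0.52, -1.05 and -1.94 in RA48. It ranged from -1.31 to -0.80 (median -0.95) in RA96 and from -1.06 to -0.35 (median -0.81) in Puromycin. Every later array lay below every Control array, and it had fallen by 0.998 ± 0.196 at the end point. Chd1l, a remodeller recruited by poly(ADP-ribose), fell by 0.76 ± 0.14, Chd6 by 0.64 ± 0.08, Chd7 by 0.58 ± 0.14 and Chd8 by 0.30 ± 0.10. Neither probe of Chd8 was called by itself (-0.33 and -0.26), and second-set arrays gave -0.19 for the gene (limma adjusted p = 0.192). Chd4, the main ATPase of the NuRD complex, fell by 0.69 ± 0.23. This is the mean of -1.19 on first-set arrays and -0.19 (adjusted p = 0.107) on second-set arrays. Chd1 (-0.32 ± 0.17) and Chd3 (0.39 ± 0.23) were not called, and both were with the set as a block (adjusted p = 0.000556 and 0.0235).

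Polycomb repressive complex 2, which methylates histone H3 at lysine 27, was lower in all 3 measured genes, and Ezh2 was not assessed. Suz12, a scaffold subunit, ranged from 1.75 to 2.00 (median 1.84) in Control and stood at 1.05, 1.14, 0.92, 0.74 and 1.20 in RA48. It ranged from 0.54 to 1.23 (median 1.02) in RA96 and from 0.69 to 1.21 (median 0.95) in Puromycin, always below Control. It fell by 0.84 ± 0.13 in the first step (limma adjusted p = 1.96e-05) and differed by -0.03 in each of the next steps. In its window above the E2F letters lie 219 to 212 and a CCAAT box 61 to 57 bases before the start.

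Eed, the subunit that binds the methyl mark, ranged from 1.42 to 1.75 (median 1.51) in Control and stood at 0.84, 0.74, 0.90, 0.68 and 1.08 in RA48. It ranged from 0.84 to 1.50 (median 0.96) in RA96 and from 0.98 to 1.11 (median 1.09) in Puromycin. Its first-step fall was 0.69 ± 0.10 (adjusted p = 2.45e-05), and at the end point it was 0.47 ± 0.10 below Control. Ezh1 is the alternative methyltransferase of the complex, known from non-dividing cells. It ranged from -0.41 to -0.25 (median -0.28) in Control, stood at -0.35, -0.40, -0.53, -0.49 and -0.54 in RA48, and ranged from -0.75 to -0.37 (median -0.53) in RA96 and from -0.91 to -0.60 (median -0.77) in Puromycin. Its end point fall of 0.45 ± 0.07 was called (adjusted p = 2.67e-05) and none of its steps was, although the step of selection was with the set as a block (-0.21, adjusted p = 0.0494).

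Readers and partners of the other Polycomb complex diverged. Cbx7, the main Cbx reader of Polycomb complex 1 in embryonic stem cells, ranged from 1.71 to 2.38 (median 2.07) in Control. It stood at 0.59, 0.66, 0.54, 0.19 and 0.38 in RA48, and ranged from -0.48 to 0.19 (median -0.27) in RA96 and from -0.59 to -0.01 (median -0.30) in Puromycin. It fell by 1.59 ± 0.15 and then by 0.69 ± 0.15 (limma adjusted p = 2.79e-08 and 0.00275), and every later array lay below every Control array. Its alternatives Cbx2 and Cbx8 differed in direction. Cbx8 rose by 0.87 ± 0.17 and Cbx2 fell by 0.50 ± 0.14. Bmi1, a ring finger subunit of the same complex, ranged from -0.82 to 0.32 (median -0.68) in Control, stood at -0.36, -0.18, -0.28, -0.87 and -0.49 in RA48, and ranged from -0.55 to -0.05 (median -0.31) in RA96 and from -0.20 to 0.19 (median 0.01) in Puromycin. It rose by 0.54 ± 0.16 (adjusted p = 0.00847). The first set gave 0.86 and the second, which holds the Control array at 0.32, gave 0.22 (adjusted p = 0.473).

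Of a wider list of 19 measured Polycomb genes outside the rule, 2 rose and 8 fell, with a median of -0.16. The largest falls were those of Jarid2, a cofactor of Polycomb complex 2 (-2.49 ± 0.10), and Phc1, a subunit of complex 1 (-2.27 ± 0.12). Phc3, the paralogue of Phc1, rose by 1.11 ± 0.11 and Pcgf5, a relative of Bmi1, by 0.65 ± 0.11.

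Of the heterochromatin protein 1 genes, whose products bind methylated lysine 9 of histone H3, Cbx1 fell by 0.67 ± 0.11, Cbx3 by 0.69 ± 0.26, and Cbx5 was not called at the end point (-0.04 ± 0.10). Cbx5 rose by 0.48 ± 0.11 in the first step (limma adjusted p = 0.00153), so the 3 genes did not move together. Cbx3 ranged from 0.19 to 0.72 (median 0.45) in Control, stood at -0.09, 0.03, -0.02, -0.33 and -0.05 in RA48, and ranged from -0.88 to 0.05 (median -0.35) in RA96. In Puromycin its arrays were at -0.81, -1.09 and -1.01 in the first set and at 0.61, 0.55 and 0.35 in the second. The end point call (adjusted p = 0.0315) thus came from the first set, where the change was -1.38, while the second gave 0.0027 (adjusted p = 0.994). It was lost without any 1 of 6 arrays, Control replicates 3, 4 and 6 and Puromycin replicates 1 to 3, with adjusted p from 0.0529 to 0.0925.

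**Figure D4:**
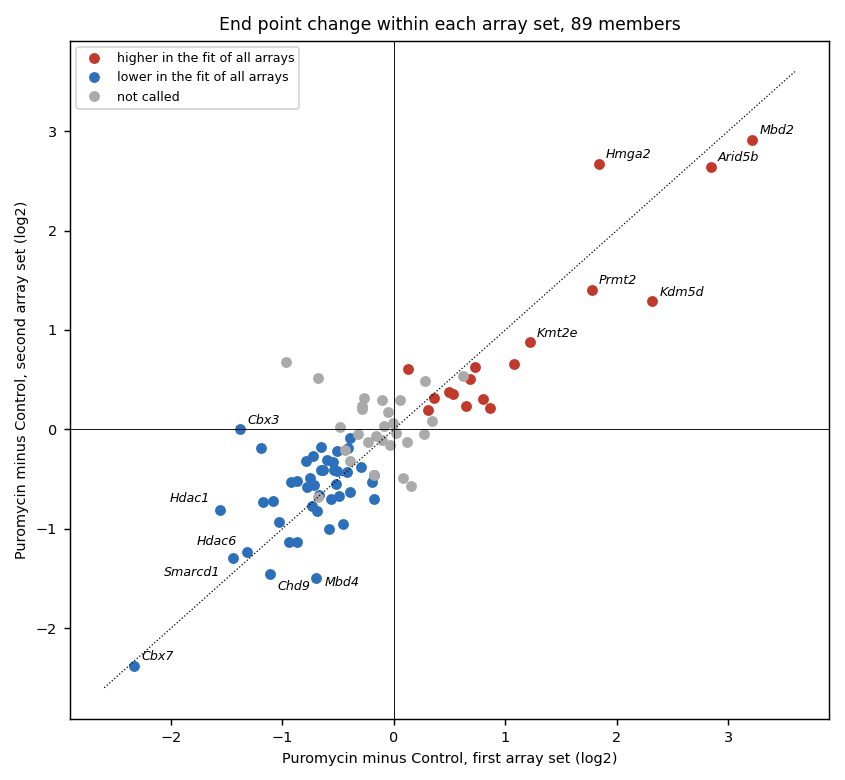
Change from Control to Puromycin (log2) of each of the 89 members within the first array set (horizontal) and within the second (vertical), with a dotted line of equal change. Red, blue and grey mark members called higher, called lower and not called over all arrays, and Cbx3 lies at -1.38 in the first and near 0 in the second set.

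Histone deacetylases remove acetyl groups from histones and other proteins. Of 9 measured Hdac genes 5 fell and 0 rose by the end point, with a median of -0.24. Hdac1, a class I deacetylase of the Sin3, NuRD and CoREST complexes, ranged from 0.92 to 1.42 (median 1.16) in Control and stood at 0.57, 0.52, 0.71, 0.96 and 0.89 in RA48. It ranged from 0.15 to 0.57 (median 0.43) in RA96. In Puromycin it was at -0.43, -0.45 and -0.59 in the first set and at 0.67, 0.43 and 0.43 in the second, all below Control. It fell by 1.18 ± 0.18 (limma adjusted p = 1.43e-05), by 1.56 and 0.81 within the sets. None of its single steps was called, but with the set as a block both retinoic acid steps were (-0.42 and -0.44, adjusted p = 0.0114 and 0.0123). Hdac2, its close paralogue, was not called (-0.03 ± 0.10), with changes of -0.28 and 0.23 within the sets.

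Hdac6, a mainly cytoplasmic deacetylase of tubulin, ranged from -0.13 to 0.66 (median 0.37) in Control, stood at 0.25, -0.06, -0.11, -0.21 and -0.21 in RA48, and ranged from -0.91 to -0.45 (median -0.68) in RA96 and from -1.23 to -0.31 (median -0.97) in Puromycin. Its end point fall was 1.28 ± 0.15 (adjusted p = 2.72e-07), with 1.32 and 1.24 within the sets. The first-step call (-0.44, adjusted p = 0.0368) was lost without any 1 of 8 arrays, 4 each of Control (replicates 1, 2, 4 and 5) and RA48 (replicates 2 to 5), with adjusted p from 0.0544 to 0.0847. Hdac5, a class II deacetylase that binds Mef2 factors, fell by 0.95 ± 0.19, Hdac11 by 0.37 ± 0.09 and Hdac3, the enzyme of the NCoR complex, by 0.24 ± 0.07. The second set alone gave -0.22 for Hdac11 and -0.09 for Hdac3 (limma adjusted p = 0.0996 and 0.244). Hdac7 rose by 0.45 ± 0.13 in the first step and stood 0.09 above Control at the end (adjusted p = 0.563). Hdac10 differed mainly between the array sets, with end point changes of -0.69 and 0.52.

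The sirtuins are deacylases that use NAD. Sirt1, the nuclear one, ranged from 0.37 to 0.92 (median 0.66) in Control and stood at -0.32, -0.28, -0.33, -0.03 and 0.24 in RA48. It ranged from -0.51 to 0.08 (median -0.05) in RA96 and from -0.22 to 0.25 (median 0.04) in Puromycin, below Control in all groups. It fell by 0.80 ± 0.14 in the first step (limma adjusted p = 0.00018) and was 0.63 ± 0.14 below Control at the end. This was the fall of 1 of its 2 probes (-1.31 in the first step), while the other was not called (-0.29, adjusted p = 0.554). The mitochondrial Sirt3 fell by 0.34 ± 0.09, and Sirt5 was not called (0.18 ± 0.09).

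The lysine methyltransferases of the Kmt symbols showed 2 rises and 1 fall among 6 genes, and their median was -0.10. Kmt2e (MLL5), a relative of the histone H3 lysine 4 methyltransferases, ranged from -1.66 to -0.98 (median -1.24) in Control and stood at -0.84, -0.78, -0.69, -0.59 and -0.53 in RA48. It ranged from -0.62 to -0.05 (median -0.29) in RA96 and from -0.29 to -0.12 (median -0.25) in Puromycin, and each later array was above each Control array. It rose by 1.05 ± 0.11 (limma adjusted p = 8.58e-08), and all 3 of its probes were called. Its second-step call (0.37, adjusted p = 0.0291) was lost without any 1 of RA48 replicates 1 to 3 and RA96 replicates 4 to 6 (adjusted p from 0.0562 to 0.0858). Kmt2c (MLL3) rose by 0.44 ± 0.16, of which 1 of 3 probes was called (1.03, the others 0.07 and 0.21), and Kmt5c, a methyltransferase of histone H4 lysine 20, fell by 0.55 ± 0.10. Kmt2a, Kmt2b and Kmt5b were not called (-0.18, -0.20 and -0.01), and Kmt2a was called lower with the set as a block (adjusted p = 0.0379). Among 17 measured histone methyltransferases outside the rule, 10 fell and 1, Setd2, rose (0.58 ± 0.13), and Nsd1 (-0.60 ± 0.08) and Setd5 (-0.56 ± 0.14) fell most.

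Of 12 lysine demethylase genes 2 rose and 5 fell, with a median of -0.34. Kdm5d, the Y-linked demethylase of histone H3 lysine 4, ranged from -2.10 to 0.05 (median -1.36) in Control. In RA48 it was at -1.76, -1.55 and -1.34 in the first set and at 0.63 and 0.35 in the second. It ranged from 0.27 to 1.52 (median 0.45) in RA96 and from 0.27 to 0.88 (median 0.62) in Puromycin, above all Control arrays. It rose by 1.80 ± 0.39 (limma adjusted p = 0.000633), by 2.32 and 1.29 within the sets. Its rise in the second step (1.34 ± 0.41) was 2.00 on first-set arrays and 0.20 (adjusted p = 0.762) on second-set arrays, and the call was lost without any 1 of RA48 replicates 1 to 3 and RA96 replicate 2 (adjusted p from 0.061 to 0.0891). The X-linked paralogue Kdm5c fell by 0.32 ± 0.10. This was the fall of 1 of its 2 probes (-0.70, the other 0.06), and the first set alone gave -0.18 (adjusted p = 0.141). Cross-hybridization between the 2 genes was not tested.

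Kdm4c, a demethylase of histone H3 lysine 9, ranged from 1.65 to 3.04 (median 2.77) in Control, stood at 2.22, 2.29, 2.11, 1.41 and 1.74 in RA48, and ranged from 1.13 to 1.76 (median 1.26) in RA96 and from 1.16 to 2.01 (median 1.65) in Puromycin. The Puromycin and Control arrays overlapped, and the end point fall of 0.98 ± 0.22 was 1.03 and 0.93 within the sets. Its first-step call (-0.64, adjusted p = 0.045) was lost without any 1 of 11 arrays, with adjusted p from 0.0501 to 0.14. These were 4 arrays of Control (1, 2, 3 and 5), 3 of RA48 (3 to 5), 3 of RA96 (2, 4 and 6) and Puromycin array 4. Kdm2b, which brings Polycomb complexes to CpG islands, fell by 0.70 ± 0.11, and the histone H3 lysine 27 demethylase Kdm6a by 0.51 ± 0.18, which was the fall of 1 of its 2 probes (the other differed by -0.02). The other demethylase of that site, Kdm6b, changed by -0.97 within the first and by 0.68 within the second set and was not called over all arrays (-0.14 ± 0.24). Kdm7a fell by 0.42 ± 0.07, and Kdm5a rose by 0.25 ± 0.06. Kdm4a, a paralogue of Kdm4c, was not called (-0.68 ± 0.29, adjusted p = 0.0583), but was with the set as a block (3.7e-06). The probes of Kdm5b were called in opposite directions in the first step and at the end point, so its mean (-0.18) describes neither.

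Arginine methyltransferases fell in all but 1 case. Of 7 measured Prmt genes 6 fell and Prmt2 rose by the end point, and all 7 differed over the groups. Prmt2 ranged from -1.96 to -1.16 (median -1.46) in Control, stood at 0.00, -0.06, -0.03, 0.08 and -0.03 in RA48, and ranged from -0.07 to 0.20 (median 0.05) in RA96 and from 0.03 to 0.24 (median 0.06) in Puromycin. Every later array was above every Control array. The rise of 1.50 ± 0.10 (limma adjusted p = 2.68e-10) lay in the first step, and the next steps differed by 0.07 and 0.02. Prmt9 fell by 0.79 ± 0.09, Prmt5, the main enzyme of symmetric dimethylation, by 0.73 ± 0.11, and Prmt7 by 0.68 ± 0.10. Prmt8 fell by 0.53 ± 0.07, Prmt1, the main enzyme of asymmetric dimethylation, by 0.52 ± 0.18, and Prmt3, which acts on a ribosomal protein, by 0.44 ± 0.10. All of these falls had the same sign in both sets.

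Bromodomain genes encode readers of acetylated histones. Of 7 measured Brd genes 2 rose and 1 fell by the end point, with a median of 0.11, and 3 rose and 1 fell with the set as a block. Brd2, a BET protein that recruits transcription factors, rose by 0.34 ± 0.08 and was 1 of the 4 members that rose during selection (0.27 ± 0.08, limma adjusted p = 0.0403). Brd9, a subunit of a SWI/SNF form, rose by 0.44 ± 0.09 (0.24, limma adjusted p = 0.109, within the second set), and Brd1 fell by 0.36 ± 0.10. Brdt, the testis BET gene, ranged from 0.43 to 1.08 (median 0.68) in Control, stood at 0.43, 0.31, 0.46, 1.23 and 2.23 in RA48, and ranged from 1.02 to 2.08 (median 1.40) in RA96 and from 1.14 to 1.50 (median 1.28) in Puromycin. Its Puromycin arrays lay above its Control arrays, but the change of 0.58 ± 0.25 was not called (adjusted p = 0.0665, and 0.0209 with the set as a block). Brd8, a subunit of an acetyltransferase complex, was not called (0.11), and 2 of its 3 probes were called in opposite directions. Brd3 differed between the array sets in every group, and with the set as a block it was called higher in the first step (0.43, adjusted p = 0.00246) and lower in the second (-0.53, adjusted p = 0.00105).

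Genes with a methyl-CpG-binding domain and their relatives all changed, with 2 of 6 higher and 4 lower at the end point. Mbd2, which binds methylated DNA within NuRD, ranged from -2.79 to -2.19 (median -2.50) in Control and stood at -0.66, -0.59, -0.61, -0.70 and -0.78 in RA48. It ranged from 0.16 to 0.46 (median 0.30) in RA96 and from 0.43 to 0.73 (median 0.59) in Puromycin. It rose by 1.80 ± 0.10 and by 0.99 ± 0.10 (limma adjusted p = 5.01e-12 and 4.65e-07) without overlap, and the last step differed by 0.27 ± 0.09 (0.102). Mbd1 rose by 0.59 ± 0.09. Mbd3, the member of NuRD that does not need DNA methylation, fell by 0.47 ± 0.14, and its relative Mbd3l2 by 0.42 ± 0.15. Within the second set the change of Mbd3l2 was -0.18 (limma adjusted p = 0.367).

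Mbd4, a glycosylase that repairs mismatches at methylated sites, ranged from 0.39 to 1.31 (median 0.74) in Control, stood at 0.13, -0.04, 0.22, -0.10 and 0.05 in RA48, and ranged from -0.70 to -0.18 (median -0.53) in RA96 and from -0.61 to -0.07 (median -0.30) in Puromycin. It fell by 1.10 ± 0.14 at the end point, by 0.70 and 1.50 within the sets. Mbd6, a partner of a Polycomb deubiquitinase, ranged from 0.34 to 0.77 (median 0.45) in Control, stood at -0.27, -0.30, -0.24, -0.21 and -0.21 in RA48, and ranged from -0.68 to -0.39 (median -0.52) in RA96 and from -0.63 to -0.43 (median -0.52) in Puromycin. It fell by 1.04 ± 0.08, of which 0.77 ± 0.09 lay in the first step, and its second-step call (adjusted p = 0.0246) was lost without RA48 replicate 3 or RA96 replicate 1 or 2 (0.055, 0.0543 and 0.0592). Of 9 measured genes of DNA methylation outside the rule 1 rose and 4 fell, led by Dnmt3b (-5.04 ± 0.14) and Dnmt3l (-1.85 ± 0.19), a de novo methyltransferase and its cofactor, and the riser was Uhrf2 (0.43 ± 0.07).

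Hmga2, an architectural protein that binds AT-rich DNA in embryonic and dividing cells, was high against the embryo and rose further. It ranged from 1.69 to 2.14 (median 2.04) in Control and stood at 3.12, 3.26, 3.19, 3.58 and 3.71 in RA48. In RA96 it was at 2.80 and 2.98 in the first set and at 2.98, 4.13, 4.18 and 4.29 in the second. In Puromycin it was at 3.70, 3.77 and 3.71 in the first and at 4.84, 4.76 and 4.74 in the second set. All later arrays were above Control, and in Puromycin the sets did not overlap. It rose by 1.37 ± 0.28 in the first step (limma adjusted p = 0.000682). The step of selection was called with the set as a block (0.81, adjusted p = 0.00506) and not without it (0.69 ± 0.27, 0.158).

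The steps were also compared with each other, in a contrast of the first against the second 48 h that was added after the data were seen. It was called in 16 members (18%, against 13.3% of rows), and in 34 with the array set as a block (38.2%, against 25.2%). Smarca5 differed most (1.80 ± 0.23, limma adjusted p = 9.45e-06), followed by Prmt2 (1.42 ± 0.18, 1.09e-05) and Chd9 (-1.05 ± 0.19, 0.000614). The probes of Smarca5 disagreed, with steps of 2.93 and -1.42 on one and of -0.48 and 0.27 on the other. Eed (-0.92 ± 0.18, 0.00141) and Suz12 (-0.80 ± 0.22, 0.0168), both of Polycomb complex 2, moved more in the first step, as did Cbx7, Mbd2, Mbd6, Sirt1, Prmt7 and Prmt9. For Sirt1 and Prmt7 the probes differed, with first-step changes of -1.31 and -0.29 and of -0.97 and -0.03. Kdm3a rose by 0.32 and then fell by 0.44, Cbx5 rose by 0.48 and then differed by -0.24, which was not called, and Arid5b (-0.42 ± 0.14, 0.0475) gained more in the second 48 h. By called steps alone, 17 members fell in the first 48 h and in neither later step, 9 fell in the second step alone and 6 in both, and 2 rose in the first and fell in the second. Another 40 were called in no step. Shares of all rows with these patterns are not given, so the patterns do not set the members apart from other genes. In the plot of one step against the other Prmt2 and Chd9 lie far out along the horizontal axis.

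**Figure D5:**
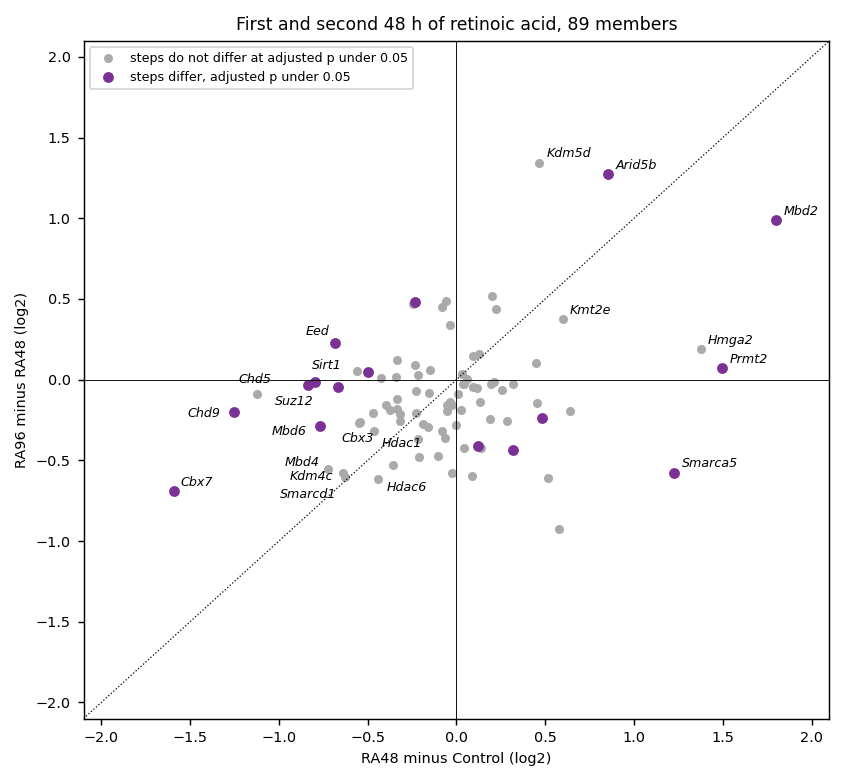
Change over the first 48 h of retinoic acid (horizontal, RA48 minus Control, log2) against change over the second (vertical, RA96 minus RA48, log2) for the 89 members, with a dotted line of equal change. Purple marks the 16 members whose steps differed, among them Prmt2 at 1.50 and 0.07 and Smarca5 at 1.23 and -0.58. The point of Smarca5 is a mean of probes that disagreed.

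Partner genes outside the rule were counted in the same way at the end point, where 26.4% of all rows fell and 19.8% rose. Of 13 other measured remodeller subunits 9 fell and 1 rose (median -0.54). Hells, a remodeller needed for DNA methylation, fell by 1.63 ± 0.11 and Ruvbl2, a helicase of INO80, by 1.31 ± 0.36, and the riser was Baz1b, a partner of Smarca5 (0.39 ± 0.07). Of 14 histone acetyltransferase genes, which oppose the Hdac members, 10 fell and 2 rose (median -0.44). Kat2b (-0.86 ± 0.12) and Ncoa3 (-0.85 ± 0.22) fell most, and Kat6a (0.67 ± 0.12) and Kat7 (0.37 ± 0.13) rose. Of 16 corepressor genes 5 rose and 4 fell (median 0.02). Sin3a and Sin3b, alternative scaffolds that carry Hdac1 and Hdac2, moved apart, by -0.93 ± 0.09 and 1.09 ± 0.10. Tbl1x, a subunit of the NCoR complex, rose by 0.93 ± 0.08 and the corepressor Trim28 fell by 0.95 ± 0.15. Of 15 histone chaperone and HMG genes 8 fell and 1 rose (median -0.54), with Nasp (-1.38 ± 0.23) and Nap1l1 (-1.38 ± 0.19) falling most and Nap1l4 rising (0.48 ± 0.10). Of 4 measured genes in a list of other demethylases, which also held the arginine deiminase Padi4, 3 fell. Among them were Padi4 (-0.97 ± 0.24) and Jmjd1c (-0.52 ± 0.11).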

How the data were processed

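RNA of 23 A404 samples in 4 groups was hybridised to 2-colour arrays, which were scanned and quantified with the Agilent scanner and Feature Extraction software that the labels name. The deposited values are ratios that were read as log10, red cell RNA over green embryo RNA, from the values and the dyes in the labels. Their base, centring, normalization and direction are not stated in the sources used here, and no dye was swapped, so a dye bias of a probe stays in its level. Values were divided by 0.301 to give log2. Of 21446 rows 1166 control-like rows were left out. Of the 20280 probes kept, 11100 carried 1 gene symbol, 442 several and 8738 none, and probes of 1 gene were averaged, which gave 17863 rows of which 8683 are genes. The number of arrays limits the precision.

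Group means were fitted over all 23 arrays with limma 3.58.1 in R 4.3.3 (statmod 1.5.0), and all adjusted p-values are from limma with Benjamini-Hochberg adjustment over all rows of a comparison, called under 0.05. The fits were also run on simulated arrays with independent noise and without the array sets. That run cannot show how the fits behave with the sets. Array sets were found from the first principal component of deviations from group means. Promoters were searched over the 250 bases before the start, without the 50 bases after it that had been planned. Tables and figures used Python 3.11.15, numpy 2.4.6, pandas 2.3.3 and matplotlib 3.10.9.

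The members and gene lists were chosen with earlier results of these data known. Values of every array or ranges are given for Ezh1, Eed, Suz12, Bmi1, Hmga2, the 14 other members with the widest range of group means among those passing the F test, and the widest of each remaining family. A gene outside the rule is named as 1 of the 2 largest called changes each way of its list at the end point. Alternatives were the array set as a fixed or random block or alone, a replicate block, other scalings, array weights, trended variance, single probes, a threshold of 0.01, other rows or groups in the fit, and leaving out each array.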

Additional observations from a re-analysis of the deposited data

Results flagged for a closer look

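In 5 of 92 groups of arrays, formed from the members described in full, the highest or lowest array stood apart from the others by Dixon's criterion, and chance flags about 1 in 20 groups. Control replicate 5 had Bmi1 at 0.32, the other Control arrays being between -0.82 and -0.56. Control replicate 2 had Hmga2 at 1.69, the others being between 1.98 and 2.14. RA96 replicate 2 had Kdm5d at 1.52, the others being between 0.27 and 0.72. Puromycin replicate 4 had Prmt2 at 0.24, the others being between 0.03 and 0.09. RA96 replicate 1 had Chd5 at -1.31, the others being between -0.98 and -0.80.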

How the results depend on the processing

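Of 50 called changes of members described in full, 1764 of 1850 alternative fits kept call and direction, 85 lost the call and 1 reversed. The reversal was Cbx3 from Control to Puromycin, at 0.0027 in the second array set alone. Of these fits 1150 left out 1 array, and 38 of those lost the call. The random block ended 18 of the 50 calls. Among them were the end point calls of Bmi1, Cbx3, Chd5, Eed and Smarca5 (limma adjusted p = 0.313, 0.25, 0.0775, 0.0953 and 0.128). Others were the first-step calls of Chd5 and Hmga2 (0.057 and 0.0553) and the second-step call of Cbx7 (0.282). Counts of called members moved most in the later steps. From Control to RA48 the first set alone gave 51 and the random block 14, and leaving out 1 array gave 28 to 33. From RA48 to RA96 the set block gave 43, the first set alone 46, the second 14, the random block 3, array weights 46 and a threshold of 0.01 gave 10, and leaving out 1 array gave 17 to 29. From RA96 to Puromycin the set block gave 16, the first set alone 13, the second 7, the random block 0, array weights 18, a threshold of 0.01 gave 1 and single probes 7, and leaving out 1 array gave 3 to 5. At the end point the random block gave 33, and leaving out 1 array 59 to 63. In the F test the random block gave 24, and leaving out 1 array 61 to 70. The cause was not tested. The estimation of the array weights stopped before it had converged. Deviations of same-numbered arrays correlated over 0.1 in 30 of 33 pairs (range -0.46 to 0.67, and 0.3 or more between Control and Puromycin), but 4 of 23 arrays were nearest to their own number, so the numbers were not taken as pairs. With the replicate block 41, 30 and 12 members were called in the steps and 67 at the end point. Shares over all rows stand above for the set block and the random block only. The other counts here describe the members alone. No scaling changed the sign of a called member.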
